A study of Mus musculus with 3 samples.

Results

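Oxidative phosphorylation is carried out by 5 protein complexes of the inner mitochondrial membrane, and the members described here are the nuclear genes for their subunits. They were taken by gene name from the array, as every name beginning with Nduf (complex I), Sdha to Sdhd (complex II), Uqcr (complex III), Cox4 to Cox8 (complex IV) or Atp5 (complex V). The rule gave 82 genes of the 27670 names on the array, measured by 113 of 41174 probes, and 79 of them were among the 18055 genes bright enough to be tested. Of the 82, 37 fell to complex I, 4 to complex II, 7 to complex III, 18 to complex IV and 16 to complex V. The name rule also took in 3 genes that are not subunits. Ndufaf1 is an assembly factor of complex I, Cox4nb is now named Emc8 and belongs to a complex of the endoplasmic reticulum, and Atp5s is now named Dmac2l. Without these 3, 76 tested members remained. Ndufa4 was grouped with complex I by its name, although its protein is now assigned to complex IV.

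Complexes I and II feed electrons from NADH and succinate into coenzyme Q, complex III passes them on to cytochrome c, and complex IV hands them to oxygen. Complexes I, III and IV pump protons as they do so, and complex V, the ATP synthase, lets the protons back to make ATP. Dividing stem cells often rely much on glycolysis, while neurons rely on oxidative phosphorylation, so the pathway is often followed when neural precursors mature. Some of the subunits are encoded by mitochondrial DNA, and for the 13 such genes listed no probe was found by name, so they were not analysed here.

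RNA of neural stem cells labelled Dnmt3a-/- (labelled KO below) was hybridised on 3 arrays against RNA of neural stem cells labelled wild type (labelled WT). Dnmt3a encodes a DNA methyltransferase that sets new methylation. Both kinds of cell were derived from mouse embryonic stem cells, by way of neurospheres, and grown in N2B27 medium with EGF and bFGF, and the labels call the arrays 3 biological replicates. The labels do not say whether each genotype came from 1 clone. The RNA labelled KO carried Cy3 and the RNA labelled WT carried Cy5 on every array, so dye and genotype cannot be told apart, and all arrays lay on 1 slide.

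The targeted gene went against its label. The brightest Dnmt3a probe had log2 ratios of RNA labelled KO over RNA labelled WT of 1.07, 0.97 and 0.92, a mean of 0.99 ± 0.08 (SD, n = 3; limma adjusted p = 1.04e-06), and the other 2 probes averaged 0.61 and 0.76. Whether these probes lie in the deleted part is not given, so each direction below is that of the label alone. The expected cell type was checked on 8 neural stem cell markers, all of them well above background. Of these, Pax6 and Prom1 were higher and Nes, Slc1a3, Vim, Fabp7 and Sox2 lower in RNA labelled KO. The pluripotency markers Pou5f1, Nanog, Zfp42 and Dppa3 were not well above background. Across the 3 arrays the scanner rated 63.6% to 65.0% of probes as well above background for RNA labelled KO and 65.6% to 68.9% for RNA labelled WT.

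With loess normalization, which sets each gene against others of like brightness, calls among the subunits of oxidative phosphorylation ran in both directions; with median centring in place of loess 72 of the 79 were called lower, beside 53% of all genes. Of the 79 tested members, 18 were higher in RNA labelled KO, which is 22.8%, beside 22.5% of all tested genes (limma, adjusted p under 0.05). Another 15 were lower, which is 19.0%, beside 25.5% of all tested genes, and 46 did not pass the threshold. The 18 include Cox6a1, whose spot labelled WT was saturated on every array, so its ratio is an upper bound. The share called higher was near that of the whole array and the share called lower was below it. The median log2 ratio of the members was -0.03, -0.01 and 0.02 on arrays 1, 2 and 3 and 0.00 for the mean of the arrays, beside -0.01 for all genes. Bulk RNA cannot tell a lower level per cell from fewer cells of a kind. The p-values measure only the spread between these 3 arrays.

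Changes were small. The members ran from -0.27 for Ndufv2 to 0.79 for Cox6b2, and 72.2% of them lay within 1.1-fold of no difference, beside 61.9% of all genes. Their 10th to 90th percentiles spanned -0.15 to 0.20, against -0.23 to 0.23 for all genes. The median SD between arrays was 0.04 for the members and 0.06 for all genes, and 55 of 79 members lay on the same side of 0 on all 3 arrays, a share near the 12470 of 18055 for all genes. Only Cox6b2 and Cox6a1 were called with a ratio of at least 1.5-fold. The Cox6a1 spot was saturated in the channel labelled WT on every array, so its ratio is an upper bound. Across the array 1.96% of genes were at least 1.5-fold higher and 2.04% at least 1.5-fold lower with a call.

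**Figure D1:**
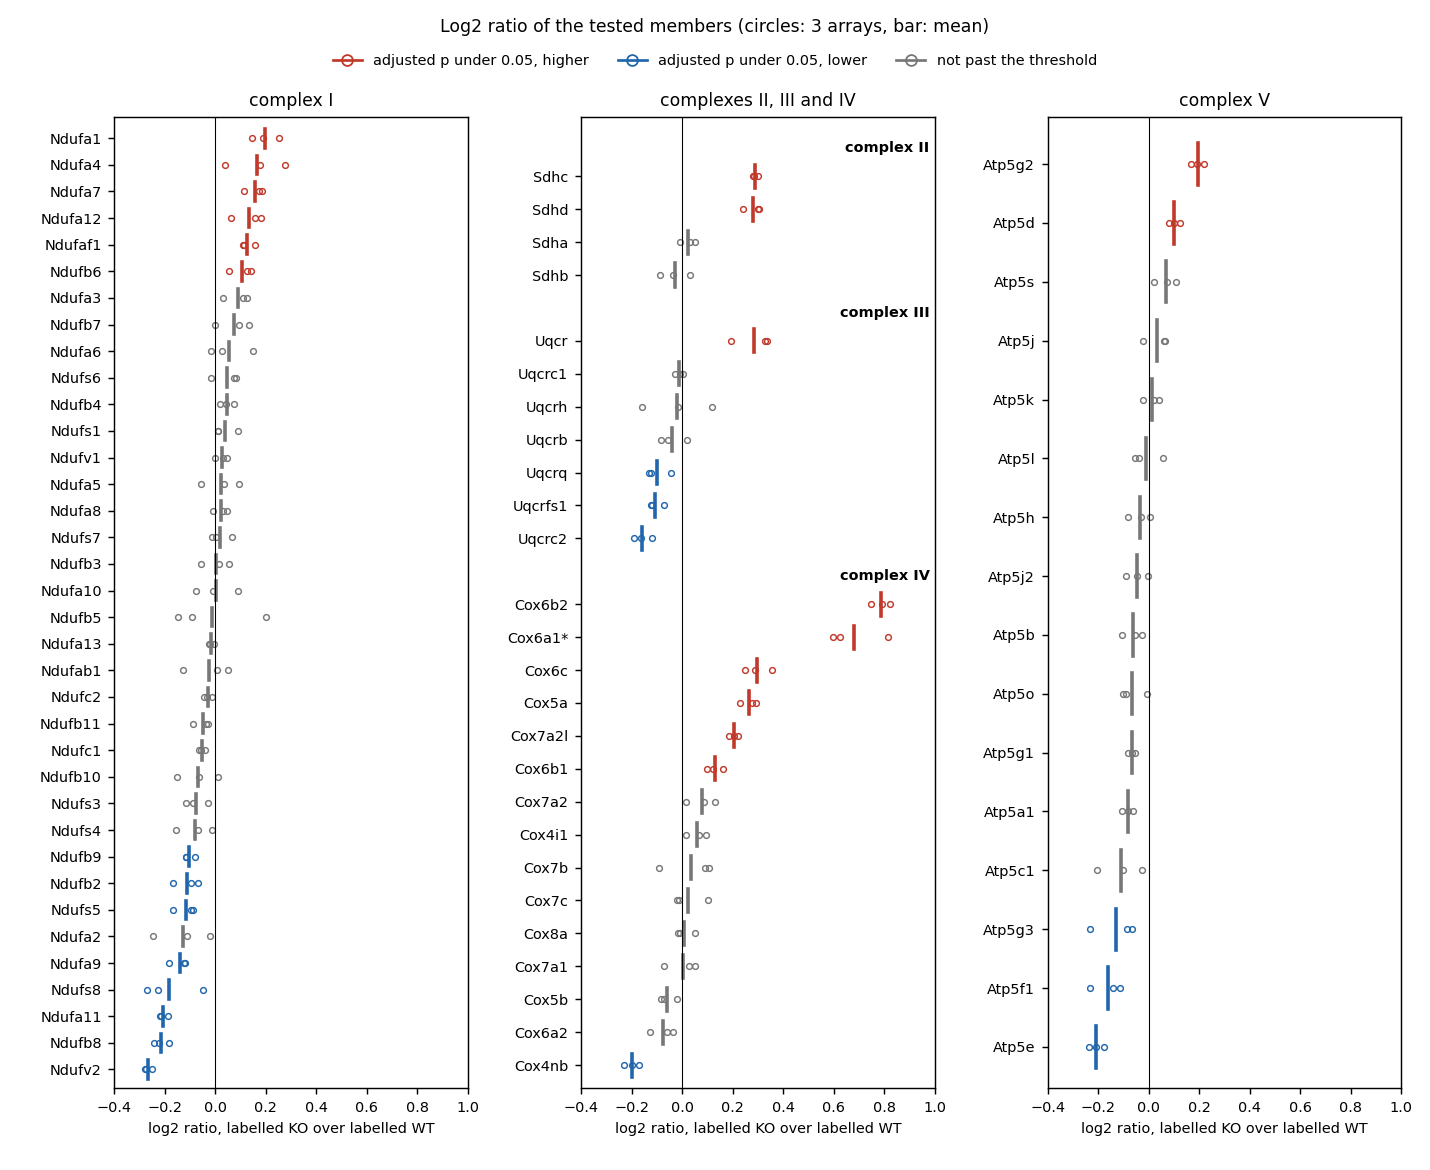
Ratio of RNA labelled KO to RNA labelled WT on the log2 scale (x axis) for 78 of the 79 tested members (rows, sorted within a complex), with loess normalization. Circles are the 3 arrays, bars their mean, red and blue mark adjusted p under 0.05, and the asterisk marks Cox6a1, whose WT spot was saturated throughout. Most bars lie within 0.2 of 0 and Cox6b2 stands at 0.79. With median centring in place of loess every member other than Cox6b2 and Cox6a1 lies below 0, beside a median of -0.26 for all genes.

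These ratios are relative to genes of similar brightness, because loess sets the typical ratio to 0 at each intensity. The members were among the brightest genes of the array, with a median mean log2 intensity of 13.3 against 8.34 for all genes, and 72 of 79 fell in the brightest 5 of 20 equal bins of genes. When each array was instead centred on its median, ratios fell with intensity over all 18055 genes (Spearman -0.72, across genes, which are not independent) and the median of all genes was -0.26. The median of the members was then -0.55, which is -0.29 relative to that of all genes, and 73 of 79 members lay below the median of all genes. Under that centring 1 member was called higher and 72 lower, beside 4.23% and 53% of all genes. Set against genes of their own intensity bin, however, the members centred in this way had a median of 0.00. The direction of the members as a group therefore depends on the normalization.

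**Figure D2:**
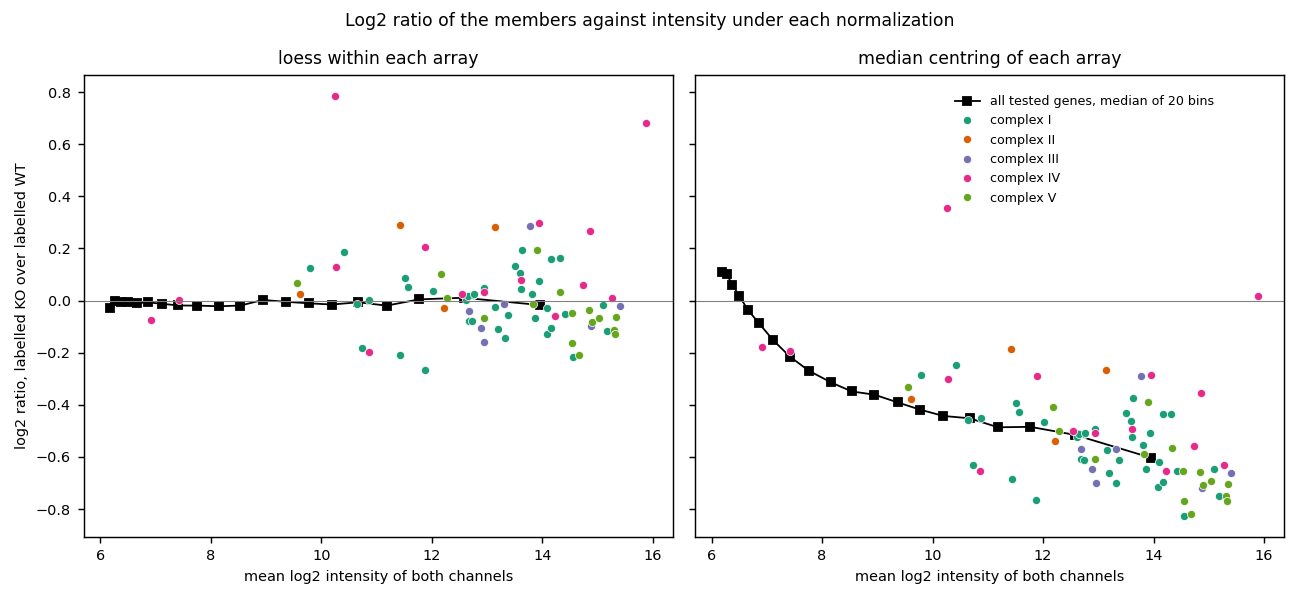
Ratio of RNA labelled KO to RNA labelled WT on the log2 scale (y axis) against mean log2 intensity (x axis) for the 79 tested members (coloured by complex) and for the medians of 20 bins of all genes (black squares). With loess the bin medians lie near 0, and with median centring they run from 0.11 in the dimmest bin to -0.60 in the brightest, with most members near that line and Cox6b2 well above it.

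Complex I oxidises NADH, and its 37 members by name had 7 higher and 8 lower in RNA labelled KO. These are 18.9% and 21.6%, beside 22.5% and 25.5% of all genes. The 7 include Ndufaf1, which is no subunit, and Ndufa4, whose protein is assigned to complex IV. The median log2 ratio of the 37 was 0.00 with loess. With median centring it was -0.52, beside -0.26 for all genes, and no member of the complex lay above 0. The core subunits encoded in the nucleus carry the flavin and the iron-sulphur clusters, and calls in both directions occurred among them. Ndufv2 and Ndufs8 passed as lower. Ndufv2, which holds an iron-sulphur cluster next to the flavin site, had log2 levels of 11.81, 11.72 and 11.71 in RNA labelled KO, against 12.08, 11.97 and 11.99 in RNA labelled WT. The groups did not overlap. Its ratio was -0.28, -0.25 and -0.28 on the 3 arrays, a mean of -0.27 ± 0.01 (SD, n = 3; limma adjusted p = 0.000314), or 1.2-fold lower. Ndufs8, another iron-sulphur subunit, had ratios of -0.23, -0.27 and -0.05, and the third array stood apart from the others (mean -0.18 ± 0.12, limma adjusted p = 0.0142). Without array 1 its mean was -0.16 and the call was lost. The flavin subunit Ndufv1 averaged 0.03 ± 0.02 and its neighbour Ndufs1 0.04 ± 0.05. Ndufs7 averaged 0.02 ± 0.04 and Ndufs3 -0.08 ± 0.05, and neither passed.

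The other complex I members surround the core as accessory subunits, and 5 of 29 were higher and 6 lower. These are 17.2% and 20.7%, beside 22.5% and 25.5% of all genes. Ndufa4 is counted among the 29 and the 5 by its name. Ndufa1, an accessory subunit of the membrane arm encoded on the X chromosome, had log2 ratios of 0.14, 0.19 and 0.25 on its brighter probe (mean 0.19 ± 0.05, limma adjusted p = 0.0028). The channel levels of that probe were 13.75, 13.73 and 13.70 in RNA labelled KO, against 13.61, 13.54 and 13.45 in RNA labelled WT, with no overlap. The other Ndufa1 probe, at -0.11, -0.04 and 0.01, was not called (mean -0.05 ± 0.06, limma adjusted p over probes = 0.337). Ndufa4, which sits on complex IV, had ratios of 0.04, 0.18 and 0.27 (mean 0.16 ± 0.12, limma adjusted p = 0.0231). Array 1 was close to no difference there, and without array 3 the mean was 0.11 and the call was lost. Ndufa11, a membrane-arm subunit, had ratios of -0.22, -0.19 and -0.22 (mean -0.21 ± 0.02, limma adjusted p = 0.00119), and its levels were 11.30 to 11.37 in RNA labelled KO and 11.52 to 11.56 in RNA labelled WT. Ndufb8, a subunit often used as a marker of assembled complex I, had ratios of -0.24, -0.22 and -0.18 on its brighter probe (mean -0.22 ± 0.03, limma adjusted p = 0.00109), but another of its probes ran the other way. The remaining calls were Ndufa7, Ndufa12 and Ndufb6 among the higher, at 0.11 to 0.16, and Ndufa9, Ndufs5, Ndufb2 and Ndufb9 among the lower, at -0.14 to -0.10. The assembly factor Ndufaf1 was higher at 0.13 ± 0.03. The 22 members of complex I that did not pass lay between -0.13 and 0.09.

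Complex II is the succinate dehydrogenase of the tricarboxylic acid cycle, and it is the complex with no subunit encoded by mitochondrial DNA. Its membrane anchors, Sdhc and Sdhd, were both higher in RNA labelled KO, while its catalytic subunits, Sdha and Sdhb, did not pass. With median centring all 4 lay below 0, the anchors at -0.19 and -0.27 and Sdha at -0.38. The median of all genes was then -0.26. Sdhc had log2 levels of 11.56, 11.55 and 11.58 in RNA labelled KO, against 11.28, 11.25 and 11.30 in RNA labelled WT. The ratios of 0.28, 0.30 and 0.29 hardly varied (mean 0.29 ± 0.01, 1.22-fold, limma adjusted p = 0.000209). Sdhd had levels of 13.32, 13.37 and 13.14 in RNA labelled KO, against 13.07, 13.07 and 12.84 in RNA labelled WT, and ratios of 0.24, 0.30 and 0.30 (mean 0.28 ± 0.03, limma adjusted p = 0.000301). The groups overlapped in neither anchor gene. Sdha, the flavoprotein, had ratios of 0.03, 0.05 and -0.01 (mean 0.02 ± 0.03, limma adjusted p = 0.578). Sdhb, the iron-sulphur subunit, had ratios of -0.04, -0.09 and 0.03 (mean -0.03 ± 0.06, limma adjusted p = 0.525). The difference between the anchors and the catalytic subunits was not tested. The probe for Sdhc that gave these values lies at chr1:171099620-171099679 and that for Sdhd at chr9:50575107-50575166, both on build mm7.

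**Figure D3:**
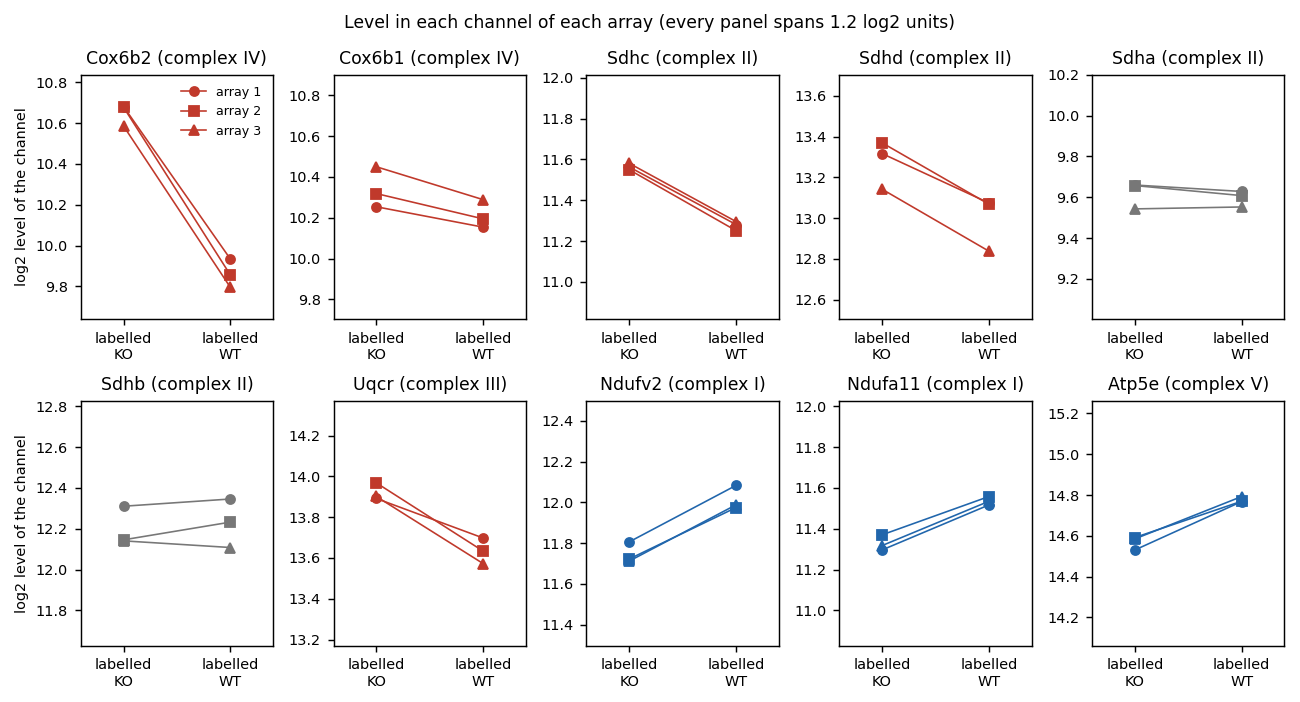
Log2 level of each channel (y axis, every panel spanning 1.2 log2 units) in RNA labelled KO (left) and RNA labelled WT (right), with each line joining the channels of 1 array, for 10 members after loess and scaling between arrays. Red marks members called higher, blue lower and grey neither. All 3 lines fall toward labelled WT for Cox6b2, Cox6b1, Sdhc, Sdhd and Uqcr, and rise for Ndufv2, Ndufa11 and Atp5e. With median centring only Cox6b2 of these 10 stays above 0, beside a median of -0.26 for all genes.

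Complex III moves electrons from coenzyme Q to cytochrome c. Of its 7 members 1 was higher and 3 were lower (14.3% and 42.9%, beside 22.5% and 25.5% of all genes). The median log2 ratio was -0.04 (-0.64 with median centring). Its subunit cytochrome c1 (Cyc1) lies outside the name rule and is given further below. The higher one was Uqcr, now named Uqcr11, the smallest subunit, with ratios of 0.19, 0.33 and 0.33 (mean 0.29 ± 0.08, limma adjusted p = 0.0007). Its levels of 13.89, 13.97 and 13.90 in RNA labelled KO all lay above those of 13.70, 13.63 and 13.57 in RNA labelled WT; with median centring its ratio was -0.29. The core protein Uqcrc2 had ratios of -0.19, -0.16 and -0.12 (mean -0.16 ± 0.04, limma adjusted p = 0.00557), with levels of 12.86, 12.86 and 12.90 in RNA labelled KO against 13.05, 13.02 and 13.02 in RNA labelled WT. Its partner Uqcrc1 averaged -0.01 ± 0.02 and did not pass. Uqcrfs1, the Rieske iron-sulphur protein, had ratios of -0.12, -0.12 and -0.07 (mean -0.11 ± 0.03, limma adjusted p = 0.0289), and the call was lost when any 1 array was left out, at means of -0.12 to -0.097. Uqcrq, a small subunit, averaged -0.10 ± 0.05 (limma adjusted p = 0.0445) and was likewise lost without any 1 array, at -0.13 to -0.085.

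Complex IV reduces oxygen, and 6 of its 15 tested members were called higher and 1 lower (40% and 6.67%, beside 22.5% and 25.5% of all genes). The 1 called lower was Cox4nb, which is no subunit. Ndufa4, called higher, was counted with complex I by its name. Among the 6, Cox6a1 was saturated in the channel labelled WT on every array, so its direction is not settled. With median centring only Cox6b2 of these 6 was called higher. Cox6b2, the testis form of a subunit that holds the complex's dimer together, had log2 levels of 10.68, 10.68 and 10.59 in RNA labelled KO, against 9.93, 9.86 and 9.80 in RNA labelled WT. Its ratios on the 3 arrays were 0.75, 0.82 and 0.79 (mean 0.79 ± 0.04, 1.72-fold, limma adjusted p = 1.55e-06). The somatic form, Cox6b1, had ratios of 0.10, 0.12 and 0.16 (mean 0.13 ± 0.03, limma adjusted p = 0.0134), and its levels of 10.25 to 10.45 in RNA labelled KO overlapped with those of 10.15 to 10.29 in RNA labelled WT. Without array 3 the ratio of Cox6b1 was 0.11 and the call was lost. Their probes lie at chr7:4326339-4326398 for Cox6b2 and chr7:27565779-27567275 for Cox6b1 on build mm7, and the longest run of bases they share is 6.

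Both Cox6b genes lie on chromosome 7 but differ in how many CpG sites, the places where DNA methylation is set, precede their starts. The 250 bases before each start, from RefSeq on build GRCm38.p6, are shown because Cox6b2 carried the largest ratio of the members and Cox6b1 is its closest relative, and the promoter of Sdhd is shown as that of the complex II anchor found in the table. Capitals mark CpG sites, all 3 are on the minus strand, and the positions are chr7:4753095-4753344 for Cox6b2, chr7:30626115-30626364 for Cox6b1 and chr9:50603850-50604099 for Sdhd.
Cox6b2: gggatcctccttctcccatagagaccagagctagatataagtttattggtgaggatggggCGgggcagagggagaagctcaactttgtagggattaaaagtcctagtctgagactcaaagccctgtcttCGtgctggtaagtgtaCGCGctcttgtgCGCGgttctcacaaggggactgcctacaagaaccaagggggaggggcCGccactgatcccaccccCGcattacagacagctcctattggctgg
Cox6b1: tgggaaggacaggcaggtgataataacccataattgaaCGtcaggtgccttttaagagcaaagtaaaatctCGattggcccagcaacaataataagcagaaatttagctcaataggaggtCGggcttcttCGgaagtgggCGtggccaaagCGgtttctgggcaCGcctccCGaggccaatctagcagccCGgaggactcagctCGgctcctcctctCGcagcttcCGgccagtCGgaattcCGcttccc
Sdhd: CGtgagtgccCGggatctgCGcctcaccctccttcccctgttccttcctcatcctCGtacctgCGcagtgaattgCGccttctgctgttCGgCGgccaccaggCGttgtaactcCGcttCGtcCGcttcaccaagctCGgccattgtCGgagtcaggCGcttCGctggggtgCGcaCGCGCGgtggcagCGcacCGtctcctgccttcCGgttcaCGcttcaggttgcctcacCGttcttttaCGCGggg
These stretches hold 8 CpG sites before Cox6b2, 14 before Cox6b1 and 27 before Sdhd, and the ratio of observed to expected CpG is 0.43, 0.77 and 1.06. No methylation was measured in this series.

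Cox6a1 was the other member with a large ratio, but its level in RNA labelled WT was only bounded. Its labelled WT spot was at the scanner's ceiling on every array, at net signals of 65140, 65140 and 65134, while the channel labelled KO read 45348, 64849 and 59500. The normalized log2 levels averaged 16.2 in RNA labelled KO and 15.5 in RNA labelled WT (limma adjusted p = 1.98e-05, from the saturated readings). Since the reading labelled WT is too low by an unknown amount, the ratio is an upper bound. No fold is given, and the call as higher does not settle the direction. Its muscle isoform, Cox6a2, averaged -0.08 ± 0.05 and did not pass.

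Among the other complex IV genes, Cox6c, an accessory subunit, had ratios of 0.29, 0.25 and 0.35 (mean 0.30 ± 0.05, limma adjusted p = 0.000313). Its channel levels were 14.06, 14.01 and 14.22 in RNA labelled KO and 13.77, 13.76 and 13.87 in RNA labelled WT, with no overlap. Cox5a, a subunit on the matrix side, was higher at 0.27 ± 0.03. Cox7a2l, which joins complexes III and IV into supercomplexes, had ratios of 0.18, 0.22 and 0.21 (mean 0.20 ± 0.02, limma adjusted p = 0.00133). With median centring Cox6c was at -0.28, Cox5a at -0.35 and Cox7a2l at -0.29. Cox4nb, which is Emc8 and no subunit, was lower at -0.20 ± 0.03 (limma adjusted p = 0.00166). The ubiquitous forms Cox4i1, Cox7a2 and Cox8a averaged 0.06 ± 0.04, 0.08 ± 0.06 and 0.01 ± 0.04, and Cox7b averaged 0.03 ± 0.11. None of these 4 passed.

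Most tissue-specific isoforms of complex IV were dim. Cox4i2, the form known from lung, and Cox8b and Cox8c, forms known from muscle and testis, were not well above background in either channel on any array and were not tested. Cox7a1, the muscle form of Cox7a, was dim but tested, with log2 levels of 7.40, 7.45 and 7.40 in RNA labelled KO and 7.48, 7.42 and 7.35 in RNA labelled WT (ratio 0.00 ± 0.07). Of 6 muscle markers, given beside these isoforms, 4 were tested, and their part in the values was not tested. Actc1 was higher by 0.83 ± 0.14 and Myh7 by 0.33 ± 0.07, Des was lower at -1.19 ± 0.13, and Acta2 did not pass. Summed over those 4 genes on a linear scale the levels were 7083 to 8139 in RNA labelled KO and 6484 to 7684 in RNA labelled WT. Acta2, the brightest, weighs most in these sums, at mean log2 levels of 12.7 in RNA labelled KO and 12.6 in RNA labelled WT. Myh6 and Ckm were not well above background.

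Complex V makes ATP with a soluble F1 head, a membrane ring of c subunits and a stator that joins them. Of its 16 members 2 were higher and 3 lower (12.5% and 18.75%, beside 22.5% and 25.5% of all genes). The median log2 ratio was -0.06 (-0.66 with median centring). In the F1 head, the delta subunit gene Atp5d had ratios of 0.10, 0.08 and 0.12 (mean 0.10 ± 0.02, limma adjusted p = 0.0329; -0.41 with median centring), and the call was lost without any 1 array, at means of 0.090 to 0.11. The epsilon subunit gene Atp5e had ratios of -0.24, -0.18 and -0.21 (mean -0.21 ± 0.03, limma adjusted p = 0.00136), with levels of 14.53, 14.59 and 14.58 in RNA labelled KO against 14.77, 14.77 and 14.79 in RNA labelled WT. Both proteins belong to the central stalk and bind each other. The catalytic beta subunit gene Atp5b averaged -0.06 ± 0.04, the alpha subunit gene Atp5a1 -0.08 ± 0.02 and the gamma subunit gene Atp5c1 -0.11 ± 0.09, and none of the 3 passed. Dimmer probes of Atp5b averaged 0.11 ± 0.13, not called, and 0.22 ± 0.06, called higher (limma adjusted p over probes = 0.00195), so its direction rests on the probe. A dimmer probe of Atp5a1 averaged 0.08 ± 0.05 and was not called. Without array 1, where its labelled WT spot was saturated, Atp5c1 was at -0.15 and passed as lower.

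The c ring is built from 1 protein that 3 genes encode, and these genes did not move alike. Atp5g2 had ratios of 0.17, 0.22 and 0.19 (mean 0.19 ± 0.03, limma adjusted p = 0.00187; -0.39 with median centring). Atp5g3 had ratios of -0.09, -0.07 and -0.23 (mean -0.13 ± 0.09, limma adjusted p = 0.0347), with the third array apart from the others and the channel labelled WT saturated on the first. Without array 3 its mean was -0.076 and the call was lost. Atp5g1 averaged -0.07 ± 0.01 and did not pass. In the stator, Atp5f1, now named Atp5pb, was lower, with ratios of -0.23, -0.14 and -0.11 (mean -0.16 ± 0.06, limma adjusted p = 0.00759). Differences between the 3 c ring genes were not tested. The 11 members of complex V that did not pass lay between -0.11 and 0.07.

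Saturation touched the members more often than other spots, and in 1 channel. Of 339 readings of member spots, 7 were saturated in the channel labelled WT and 0 in the channel labelled KO, 2.06% and 0%, beside 0.314% and 0.0138% of all spots. The saturated readings were 3 of Cox6a1 in complex IV, 1 each of Atp5b, Atp5c1 and Atp5g3 in complex V, and 1 of Uqcrh in complex III, and complexes I and II had none. Apart from Cox6a1 each lay on array 1. On that array Uqcrh, the hinge protein of complex III, read 28302 in the channel labelled KO and 65108, at the ceiling, in the channel labelled WT. Its log2 ratio was at most 0.12 there, and it was -0.02 and -0.16 on arrays 2 and 3. The mean with the saturated reading was -0.02 ± 0.14 (limma adjusted p = 0.784). The ratios of Atp5b, Atp5c1 and Atp5g3 on array 1 are upper bounds likewise. For Atp5b the readings on array 1 were 25607 in the channel labelled KO and 65084 in that labelled WT, and for Atp5c1 they were 25655 in the channel labelled KO and 65137 in that labelled WT. With saturated spots left out, 17 members were higher and 14 lower of 76 tested, beside 22.5% and 25.7% of all genes.

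Probes of the same gene did not always give the same answer. Ndufb8 had a bright probe at -0.22 ± 0.03 and a dim one with ratios of 0.20, 0.26 and 0.24 (mean 0.23 ± 0.03), both past the threshold over all probes (limma). Averaged over both, Ndufb8 was at 0.01 and did not pass, so its direction rests on the probe. Cox4nb likewise had probes at -0.20 ± 0.03 and 0.15 ± 0.10. For Atp5h, the d subunit of the stator, the probes overlap, at chr11:115524825-115524884 and chr11:115524865-115524924 of build mm7 on the minus strand. They are shown in that order, with the shared 20 bases in capitals.
Atp5h probe 1: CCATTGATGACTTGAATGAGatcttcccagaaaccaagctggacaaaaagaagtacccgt
Atp5h probe 2: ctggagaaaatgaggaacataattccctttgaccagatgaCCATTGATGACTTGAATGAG
The first had ratios of 0.06, 0.20 and 0.20 (mean 0.15 ± 0.08, limma adjusted p over probes = 0.0142) and the second, the brighter, averaged -0.04 ± 0.04 and did not pass. Of these overlapping probes 1 was called higher and 1 was not called. The Ndufa11 probes, which share 50 bases, gave -0.21 ± 0.02 and -0.22 ± 0.02.

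Beyond the members, calls among the genes that build and supply the complexes ran in both directions. Their shares stand beside 22.5% higher and 25.5% lower of all tested genes. Of 36 tested assembly factors 10 were higher and 6 lower (27.8% and 16.7%). Cox20, a chaperone of a complex IV subunit, was at 0.27 ± 0.08, and Coa7 and the complex I factor Tmem126b were at -0.27 ± 0.04 and -0.26 ± 0.08. Of 10 genes of coenzyme Q synthesis 2 were higher and 3 lower (20% and 30%), with Coq7 at -0.23 ± 0.08, Coq9 at 0.14 ± 0.09 and Pdss1 at -0.12 ± 0.06. Without array 1 Coq9 was at 0.086 and Pdss1 at -0.085, and both calls were lost, as was that of Pdss1 without array 3, at -0.13. Cytochrome c (Cycs, -0.10 ± 0.08) did not pass. Neither did cytochrome c1 (Cyc1, 0.06 ± 0.07), a subunit of complex III that the name rule did not take in. Of 7 carriers and pores 2 were higher and 0 lower (28.6% and 0%; limma, adjusted p under 0.05). These were the phosphate carrier Slc25a3, at 0.41 ± 0.02, and the outer-membrane channel Vdac2, at 0.39 ± 0.05, each on a scale where the members called higher, Cox6b2 and Cox6a1 apart, reached 0.30. With median centring Slc25a3 was at -0.12, Vdac2 at -0.15, Cox20 at -0.19 and Coq9 at -0.24, beside a median of -0.26 for all genes.

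The mitochondrial ribosome, which translates the subunits encoded by mitochondrial DNA, had 10 genes higher and 26 lower of 78 (12.8% and 33.3%, beside 22.5% and 25.5% of all genes), with a median log2 ratio of -0.02. Mrpl36 was at 0.28 ± 0.03, Mrpl44 at -0.29 ± 0.02 and Mrpl48 at -0.28 ± 0.05. Of 17 genes of the tricarboxylic acid cycle and pyruvate dehydrogenase 3 were higher and 6 lower (17.6% and 35.3%), with Dlat at -0.32 ± 0.05 and Idh3a at -0.19 ± 0.07. Mdh2, saturated in the channel labelled WT on every array, was at least 1.21-fold lower in RNA labelled KO. Of 12 regulators 2 were higher and 4 lower (16.7% and 33.3%). Esrra, a nuclear receptor that drives mitochondrial genes, was at 0.40 ± 0.02, and Tfam and Tfb1m, which serve transcription of mitochondrial DNA, were at -0.37 ± 0.17 and -0.37 ± 0.06. With median centring Esrra was at -0.048 and Mrpl36 at -0.20, beside a median of -0.26 for all genes.

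Glycolysis makes pyruvate outside the mitochondrion, and its list here also holds Pdk kinases, lactate dehydrogenases and glucose transporters. Of its 22 tested genes 12 were higher and 1 lower in RNA labelled KO (54.5% and 4.55%, beside 22.5% and 25.5% of all genes), with a median log2 ratio of 0.12. Among the 12, Aldoa had 2 saturated readings in the channel labelled WT, so its ratio is an upper bound. With median centring, over all the related lists together and not glycolysis alone, 1 gene was higher and 157 were lower, beside 4.23% and 53% of all genes. Pfkl, a form of phosphofructokinase, had ratios of 0.56, 0.47 and 0.57 (mean 0.53 ± 0.06, limma adjusted p = 1.56e-05). Pdk1, a kinase that inhibits pyruvate dehydrogenase, had ratios of 0.43, 0.54 and 0.40 (mean 0.45 ± 0.07, limma adjusted p = 5.35e-05). Aldoc, the aldolase of astrocytes, was lower at -0.46 ± 0.08 (limma adjusted p = 6.19e-05). The difference between the glycolytic genes and the subunits was not tested. Among 11 genes now named as subunits or factors of the complexes but carried under older names in the files, chosen after the files were seen, 10 were tested, and Uqcr10, Atp5mpl and Ndufaf7 were higher at 0.19 ± 0.03, 0.15 ± 0.09 and 0.13 ± 0.01. Without array 3 the calls of Atp5mpl (0.11) and Ndufaf7 (0.13) were lost, and without array 2 that of Ndufaf7 (0.12). With median centring these 3 lay between -0.40 and -0.30.

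**Figure D4:**
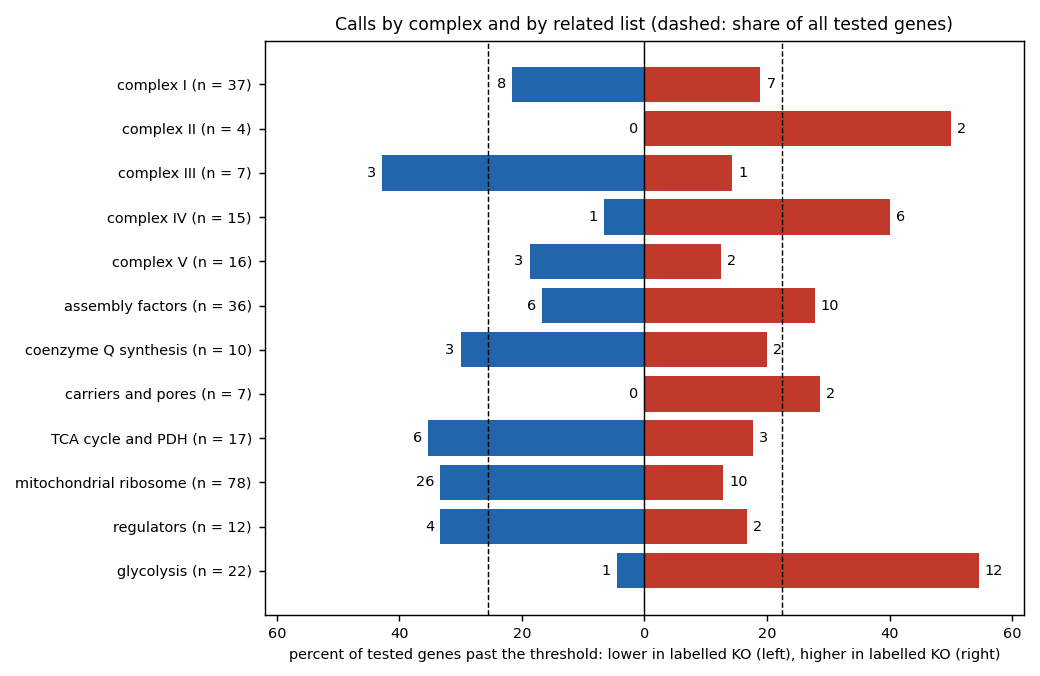
Percent of tested genes past the threshold, higher in RNA labelled KO to the right and lower to the left, for each complex and each related list, with counts at the bar ends and the number tested in brackets; dashed lines mark the 22.5% and 25.5% of all genes. Complexes I and V stay inside both lines, and glycolysis has 12 of 22 to the right. Complex IV has 6 of 15 to the right, with Cox6a1, saturated in the channel labelled WT, among them. With median centring the median log2 ratio is below 0 in every complex, and is -0.26 for all genes.

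Markers of other cells moved too, and their part in the values above was not tested. Of 5 fibroblast markers, all tested, 4 were lower in RNA labelled KO, with Col1a2 at -1.48 ± 0.02, and their summed linear levels were 130639 to 137096 in RNA labelled KO and 178368 to 198597 in RNA labelled WT, with Col1a1 and Col3a1 saturated in the channel labelled WT. Of 8 neural stem cell markers 2 were higher and 5 lower, with sums of 55000 to 56377 in RNA labelled KO and 63454 to 66468 in RNA labelled WT. Of 4 tested neuronal markers 2 were lower, with sums of 980 to 999 in RNA labelled KO and 1034 to 1069 in RNA labelled WT. Of 3 tested astrocyte markers 1 was lower, Aldh1l1 at -1.01 ± 0.06, and the others did not pass. The astrocyte sums were 370 to 378 in RNA labelled KO and 548 to 568 in RNA labelled WT. Of 4 tested oligodendrocyte markers 2 were lower, with sums of 1495 to 1535 in RNA labelled KO and 2184 to 2246 in RNA labelled WT. Rbfox3 was tested but Syp, Gfap and Mog were not well above background. Of 4 microglial markers 2 were tested and neither passed, with sums of 146 to 151 in RNA labelled KO and 145 to 152 in RNA labelled WT.

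The promoters of the members differed from all promoters in features that the name rule did not use. They were not compared with promoters of genes of like brightness. RefSeq holds 72 promoters for 67 of the 82 members, as windows of 300 bases from 250 before to 50 after the start (build GRCm38.p6). They held a median of 19 CpG sites, against 7 over all 32851 promoters, and a median ratio of observed to expected CpG of 0.82, against 0.38. The motif of NRF1, a factor known to act on respiratory genes, spelled GCGC, any 2 bases, GCGC, was found on either strand in 27.8% of the members' promoters and 6.23% of all. The ETS motif CCGGAAG was found in 23.6% against 8.86%, and the YY1 motif AAGATGGC in 13.9% against 2.75%. The TATA motif TATAAA was found in 9.72% against 13.6%. Each promoter was counted once per motif, overlaps between motifs were kept, and the NRF1 and ETS motifs themselves contain CG. A match is a description of the letters and not a binding site.

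Among the members, the median number of CpG sites was 19 in 17 promoters of members called higher, 22 in 11 promoters of members called lower and 19 in 43 promoters of members that did not pass. The NRF1 motif was in 17.6%, 36.4% and 30.2% of these, the ETS motif in 35.3%, 18.2% and 20.9%, and the YY1 motif in 0%, 27.3% and 16.3%. The counts behind these shares are small, at 3 of 17, 4 of 11 and 13 of 43 for NRF1, and no test was made. The Sdhd promoter holds the NRF1 and the ETS motif, that of Cox6b1 the ETS motif and that of Cox6b2 none of the 4, which says only that these letters are not in the window.

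Median centring apart, 11 members were called in every one of 12 settings. Those higher were Sdhc, Sdhd, Uqcr, Cox6b2, Cox6c, Cox5a, Cox7a2l and Atp5g2, and those lower were Ndufv2, Ndufa11 and Ndufa9. Of the others, Ndufs8 was lost under 5 settings and Atp5e under the scanner's own normalization and in the authors' deposited table, where it stood at -0.06 and -0.04. Of the listed members called higher, only Cox6b2 stayed above 0 with median centring, at 0.36, beside a median of -0.26 for all genes.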

How the data were processed

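Per the file headers, Agilent Feature Extraction 9.5.3.1 wrote the deposited scanner files, whose spot and background intensity values are raw and whose processed intensity values are background-subtracted and dye-normalized. Per the file headers the scanner's log10 ratio is red over green, and it served only as a check. The authors also deposited a value table of log2 ratios, which correlated with the scanner's red over green ratio at r = -0.998, -0.996 and -0.992 over features, and so was read as labelled KO over labelled WT. Its column medians were 0.0276 each, and neither labels nor headers say how it was centred. Per the file headers probe positions are on mouse build mm7; which exon a probe lies in was not looked up.

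Signals were corrected with normexp (limma 3.58.1 in R 4.3.3, offset 50, fitted without outlier-marked spots), normalized by loess within each array, turned to labelled KO over labelled WT and averaged per probe. A probe was tested if well above background in the same channel on all 3 arrays, and the brightest probe stood for a gene. The mean of 3 arrays was tested against 0 with limma (two-sided, 2 residual degrees of freedom before moderation, Benjamini-Hochberg over 18055 genes, threshold 0.05). Values after ± are SDs over 3 arrays, and the number of arrays limits the precision. Channel levels follow loess and Aquantile scaling. Symbols were updated through RefSeq by accession for 22951 probes and by symbol or synonym for 9768, and 8455 kept the file's name. The code was tested on simulated data.

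The members, the related lists and the markers were chosen with earlier results of these data known, as was the fit of normexp without marked spots. Named are, per complex, the 3 largest called ratios in each direction, saturated members, members whose probes were called in opposite directions, isoform partners, complex II, core subunits of complexes I and III, F1 subunits, and 3 genes per related list; 1 member is not reported here by name. Alternatives were other background corrections and normalization, the authors' table, dim-probe filters, saturated spots left out, the mean over probes, each replicate left out, separate channels, and members without the 3 genes that are no subunits, the last chosen after seeing the data.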

Additional observations from a re-analysis of the deposited data

How the results depend on the processing

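Median centring in place of loess changed most values: 1 member was higher and 72 were lower, the median of the members was -0.55, and it was -0.52, -0.32, -0.64, -0.35 and -0.66 in complexes I to V, while 1 gene of the related lists was higher and 157 were lower. The median of all genes was -0.26 in that setting, and 6 of 79 members lay above it. Against genes of like intensity the median of the members was 0.00. Of the 40 members above 0 with loess, all but Cox6b2 and Cox6a1 were then below 0. Those that turned include Ndufa1 (-0.37), Ndufa4 (-0.44), Ndufs1 (-0.46), Ndufv1 (-0.51), Ndufs7 (-0.51), Sdhc (-0.19), Sdhd (-0.27), Sdha (-0.38), Uqcr (-0.29), Cox6c (-0.28), Cox7a2l (-0.29), Cox6b1 (-0.30), Cox7a2 (-0.49), Cox4i1 (-0.56), Cox7b (-0.51), Cox8a (-0.63), Atp5g2 (-0.39), Atp5d (-0.41), Cox5a (-0.35), Ndufa7 (-0.43), Ndufa12 (-0.43), Ndufb6 (-0.46) and Ndufaf1 (-0.28). Among other genes it turned for Slc25a3 (-0.12), Vdac2 (-0.15), Esrra (-0.048), Mrpl36 (-0.20), Cox20 (-0.19), Coq9 (-0.24), Uqcr10 (-0.40), Atp5mpl (-0.35) and Ndufaf7 (-0.30). By its construction this setting keeps the dependence of ratios on intensity. With the mean over probes Ndufb8 was at 0.0079, and the medians of complexes II and V were 0.17 and -0.0060.

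The scanner's processed signals gave 13 members higher and 6 lower, beside 16.6% and 22.3% of all genes, medians of 0.10, 0.011 and -0.023 in complexes II, III and V, and 26 related genes higher. The authors' deposited table gave 17 members higher and 5 lower, beside 18.9% and 20% of all genes, medians of 0.12, 0.037 and 0.0038 in complexes II, III and V, and 29 related genes lower. With normexp fitted on all spots 13 members were higher and 15 lower, beside 12.9% and 17.2% of all genes, and the median of complex II was 0.12. With offset 0, 12 were higher and 11 lower, beside 19.5% and 22.4% of all genes, the medians of complexes III and V were -0.062 and -0.079, and 29 related genes were lower. With saturated spots left out the median of complex V was -0.024, and without the 3 genes that are no subunits it was -0.063. The causes were not tested.

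Leaving out each replicate gave 12 to 19 members higher and 9 to 13 lower, beside 17.3% to 21.3% and 19.2% to 22.6% of all genes. The medians were -0.012 to 0.0097 for all members and -0.013 to 0.016, 0.14 to 0.16, -0.085 to -0.032, 0.041 to 0.098 and -0.056 to -0.048 for complexes I to V. Between 29 and 36 related genes were called in each direction. Each array pairs a channel labelled KO with one labelled WT, which is the block; without that replicate block, with separate channels, 11 members were higher and 9 lower, beside 15.2% and 16.8% of all genes, and 24 related genes lower. A filter on both channels left the counts of members as they were, beside 23.2% higher and 25.3% lower of all genes. With no filter 18 members were higher and 14 lower, beside 16.9% and 17.6% of all genes. With 3 arrays of 1 dye orientation, a bias of a probe toward a dye cannot be told apart from genotype, and the ratios of the brightest members are limited by the scanner's ceiling.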
